A study of Mus musculus with 7 samples.

Results

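The mitosis and spindle genes are 43 mouse genes, picked by symbol for their role in cell division from a table of 18145 genes, and all 43 were listed there. Their RNA was measured by bulk RNA sequencing in first-passage neural stem cells grown as separate lines. The mutant genotypes were labelled Tet-TMut (TMut, 2 lines) and Tet-TFoCa (TFoCa, 2 lines, written Tet-FoCa in the design text). The controls were wild-type lines (WT, 3 lines). TET enzymes oxidise methylated cytosine, first to the hydroxymethyl form and then to the formyl and carboxyl forms, and the series title contrasts these forms in neural stem cells. The labels do not give the mutated residues or the oxidation step that each genotype affects. They also give no strain, sex or age of the source animals.

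A cell enters mitosis when CDK1, bound to cyclin A or B, becomes active. Condensin then compacts the chromosomes, motor proteins build a bipolar spindle, and kinetochores attach each chromosome to it. A checkpoint holds back the anaphase-promoting complex until every kinetochore is attached, after which the chromatids part and a central spindle guides cytokinesis. The RNA of many of these genes accumulates late in the cell cycle, so cultures of neural stem cells, which divide in culture, carry it at high levels. In bulk RNA, fewer dividing cells and less of a transcript per dividing cell cannot be told apart.

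Promoter sequences were available for 37 of the 43 genes, in a RefSeq table of build GRCm38.p6 that holds the 250 bases before and 50 after each gene's start. Where several starts were listed the first was taken. The letters TTTGAA and TTCGAA, the core of an element known from cell cycle promoters, and CCAAT were searched on both strands. Of the 37 promoters 27 held TTTGAA (73.0%), against 11.8% of the 12720 promoters of tested genes. TTCGAA stood in 4 (10.8% against 2.06%) and CCAAT in 26 (70.3% against 38.9%). TTTGAA lay within 50 bases of the start in 25 of the 27, against 397 of the 1505 tested genes with those letters (26.4%). The promoters printed here belong to the genes with the 3 lowest TMut versus WT log2 fold changes among the 37. Racgap1 lies at chr15:99651607-99651906 on the minus strand, Prc1 at chr7:80294201-80294500 on the plus strand and Nusap1 at chr2:119618048-119618347 on the plus strand. Each is written 5′ to 3′ in the direction of the gene, with TTTGAA and CCAAT, or its reverse complement, in capitals.
Racgap1: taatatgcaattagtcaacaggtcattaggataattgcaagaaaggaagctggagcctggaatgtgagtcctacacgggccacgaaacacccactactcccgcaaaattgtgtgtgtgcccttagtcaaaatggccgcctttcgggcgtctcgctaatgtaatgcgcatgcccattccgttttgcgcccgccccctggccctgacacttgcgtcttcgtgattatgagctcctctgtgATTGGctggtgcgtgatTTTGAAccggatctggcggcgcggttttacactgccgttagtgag
Prc1: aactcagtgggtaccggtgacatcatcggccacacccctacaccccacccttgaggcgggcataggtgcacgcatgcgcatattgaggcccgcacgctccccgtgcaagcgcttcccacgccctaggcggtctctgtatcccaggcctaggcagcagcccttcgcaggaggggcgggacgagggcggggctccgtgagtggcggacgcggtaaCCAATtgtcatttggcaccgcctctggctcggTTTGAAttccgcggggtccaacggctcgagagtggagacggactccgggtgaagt
Nusap1: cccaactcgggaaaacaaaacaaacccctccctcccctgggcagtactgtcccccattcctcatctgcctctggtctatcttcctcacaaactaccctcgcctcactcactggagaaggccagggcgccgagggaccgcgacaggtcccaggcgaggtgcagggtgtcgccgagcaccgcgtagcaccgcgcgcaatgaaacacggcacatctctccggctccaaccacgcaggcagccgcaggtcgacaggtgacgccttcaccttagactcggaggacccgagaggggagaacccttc
The letters TTTGAA began at base 6 after the start of Racgap1 and 5 bases before that of Prc1, and none of the searched letters stood in the Nusap1 window. A match describes these letters only.

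The 7 libraries held 33340167 to 62545457 reads in genes, and each of the 43 genes had at least 796 normalized counts in every library. A normalized count is the number of reads divided by the size factor of the library. All 43 genes passed the filter on low values (2 or more libraries with a normalized count of at least 10), as did 18134 genes in all. Over all genes both TMut libraries stood apart from the other 5 on the first principal component (55.2% of the variance). Tet1, Tet2 and Tet3 were not called in TMut or TFoCa against WT, and Tdg fell in TMut against WT (log2 fold change -0.66, adjusted p = 0.00114). The neural stem cell markers, 12 of 12 listed, summed to 132344 to 158152 normalized counts in TMut, 163031 to 172730 in TFoCa and 190546 to 198616 in WT. Such sums weigh the most abundant markers most. The median log2 fold change of the 12 against WT was -2.29 in TMut and -0.61 in TFoCa. Of these 12, 10 fell (83.3%, against 20.4% of all genes) and 1 rose (8.33%, against 18.4%) in TMut against WT. In TFoCa against WT 2 fell (16.7%, against 3.52%). The 7 pluripotency markers summed to 7866 and 29561 in the TMut libraries, 625 to 828 in TFoCa and 7333 to 15148 in WT. All 7 fell in TFoCa against WT (100%, against 3.52% of all genes). In TMut against WT 1 rose (14.3%, against 18.4%) and 0 fell. The 12 mesenchymal markers summed to 223077 to 307492 in TMut, 390233 to 439755 in TFoCa and 157175 to 169356 in WT. Neuron markers summed to 9929 to 17329 in TMut, 54278 to 55594 in TFoCa and 71421 to 74994 in WT, and 10 of 10 fell in TMut against WT. Astrocyte markers, 5 of 6 listed, summed to 216 to 327 in TMut, 1004 to 1346 in TFoCa and 2033 to 2228 in WT. Oligodendrocyte-lineage markers summed to 1824 to 1965 in TMut, 4805 to 5582 in TFoCa and 7403 to 8170 in WT. Endoderm markers, 4 of 5 listed, summed to 1164 to 1578 in TMut, 965 to 2943 in TFoCa and 1420 to 1644 in WT, and endothelial markers to 688 to 1376 in TMut, 414 to 1201 in TFoCa and 1277 to 2007 in WT. Calls of the astrocyte, oligodendrocyte-lineage, endoderm and endothelial markers are not given here. The 5 microglia markers were not analysed here. Mean levels under 10 normalized counts occurred for Prdm14 in TFoCa and Gjb6 in TMut. The part of these cell type markers in the values of the mitosis genes was not tested.

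In TFoCa against WT the mitosis genes were lower almost throughout. Of the 43, 31 fell (72.1%) in limma at a Benjamini-Hochberg adjusted p under 0.05 over all genes tested, where 3.52% of the 18134 genes fell. Of all genes 5.25% rose and 8.77% were called in either direction, while of the members 0 rose in limma, 0 were above WT at an unadjusted p under 0.05, and edgeR and DESeq2 each called 0 as higher. The median log2 fold change of the 43 was -0.54, against -0.02 over all genes tested, and 42 of 43 values were below 0, against 52.1% of all genes. In 39 of the 43 every TFoCa library lay below every WT library, which held for 24.2% of all genes, and the groups of Aurkb, Birc5, Nuf2 and Top2a overlapped. In 0 members did every TFoCa library lie above every WT library, against 21.0% of all genes. The count of 31 moved with the libraries used. It was 14, 9 and 8 without WT replicates 1, 2 and 3, 17 without TFoCa replicate 1 and 28 without TFoCa replicate 2. Over all genes the falls numbered 224, 120 and 183 without WT replicates 1, 2 and 3, against 638 with all libraries. Only the calls of Ccna2, Plk1, Mad2l1 and Bub1 held with each of the 7 libraries left out in turn, and each of the 31 called genes stayed below 0 in every one of those fits.

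TMut against WT gave falls and rises. Cdk1 and Birc5 rose (4.65% of the members, against 18.4% of all genes), 18 members fell (41.9%, against 20.4% of all genes) and 23 were not called. In either direction 46.5% of the members were called, against 38.8% of all genes. The median log2 fold change was -0.26, against 0.00 over all genes tested, and 36 values were below 0, against 49.9% of all genes. Every TMut library lay below every WT library in 30 members, against 33.6% of all genes, and above in 3 members, against 33.4%. The 20 calls became 15, 15 and 11 without WT replicates 1, 2 and 3. Over all genes rises and falls in those fits numbered 2785 and 3131, 2266 and 2595, and 2229 and 2573. With all libraries they numbered 3344 and 3699. The member count was also lower without either TMut library, fits that leave 1 TMut library. Ccna2, Sgo1, Knl1, Kif11, Nusap1, Prc1, Racgap1 and Ect2 kept their calls, all of them falls, with each library left out in turn.

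Set against TFoCa, TMut was higher for most members. In that comparison 16 rose (37.2%, against 17.3% of all genes) and 2 fell, Prc1 and Racgap1 (4.65%, against 18.5%). That made 41.9% called in either direction, against 35.8% of all genes. The median log2 fold change was 0.29, and 12 values were below 0, against 50.1% of all genes. All TMut libraries lay above all TFoCa libraries in 28 members, against 33.9% of all genes, and below in 6, against 33.5%. The count of 18 calls was 12 without WT replicate 2 or WT replicate 3. Over all genes rises and falls in those fits numbered 2411 and 2607, and 2463 and 2699. With all libraries they numbered 3141 and 3350. The member count was also lower without any 1 TFoCa or TMut library, fits that leave 1 library in that group. Cdk1, Aurka, Plk1, Mad2l1, Bub1 and Cdc20 kept their calls, all of them rises, with each library left out. The comparisons share libraries, so they are not independent of each other.

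**Figure D1:**
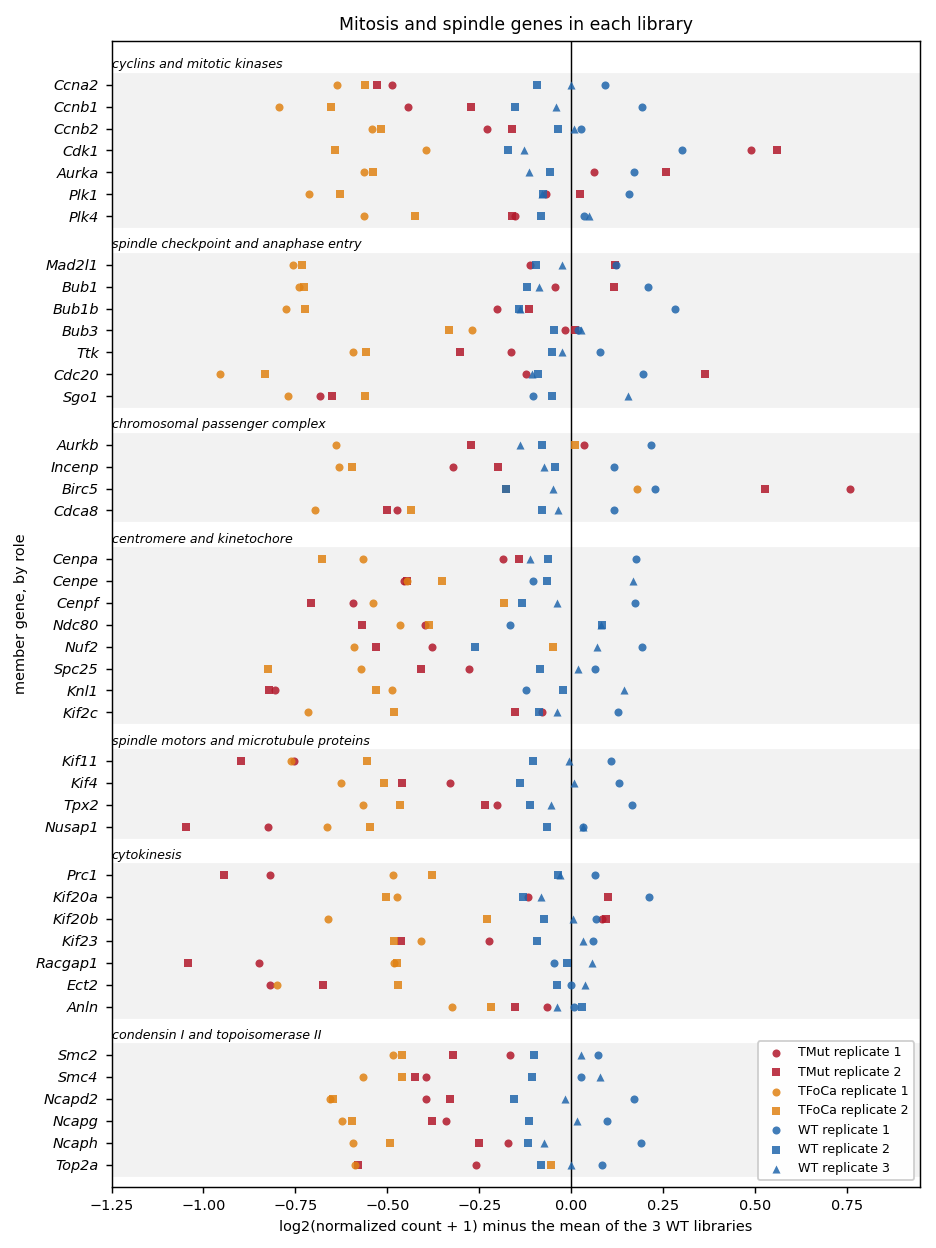
Each row is 1 of the 43 genes, grouped by role, and each point 1 library; the horizontal axis is log2(normalized count + 1) minus the mean of the 3 WT libraries. The TFoCa points lie left of the WT points in 39 of the 43 rows, and the TMut points range from right of WT (Cdk1, Birc5) to the far left (Racgap1, Nusap1, Prc1).

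By the 3 calls together, 15 members fell in both mutant genotypes against WT. A further 11 fell in TFoCa against WT, were not called in TMut against WT and rose in TMut against TFoCa: Ccnb2, Aurka, Plk1, Mad2l1, Bub1, Bub1b, Ttk, Cdc20, Incenp, Cenpa and Kif2c. Another 5 (Ccnb1, Plk4, Tpx2, Smc2 and Ncaph) were called in TFoCa against WT alone, and 3 (Cenpe, Cenpf and Ndc80) in TMut against WT alone. Bub3, Kif20a and Kif20b were called only between TMut and TFoCa. Cdk1 and Birc5 rose in TMut against both WT and TFoCa and were not called in TFoCa against WT. The remaining 4, Aurkb, Nuf2, Anln and Top2a, were called in none of the 3 comparisons. Both comparisons against WT use the same WT libraries. The shares of all genes with these joint patterns are not given here, so the counts describe the members only.

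**Figure D2:**
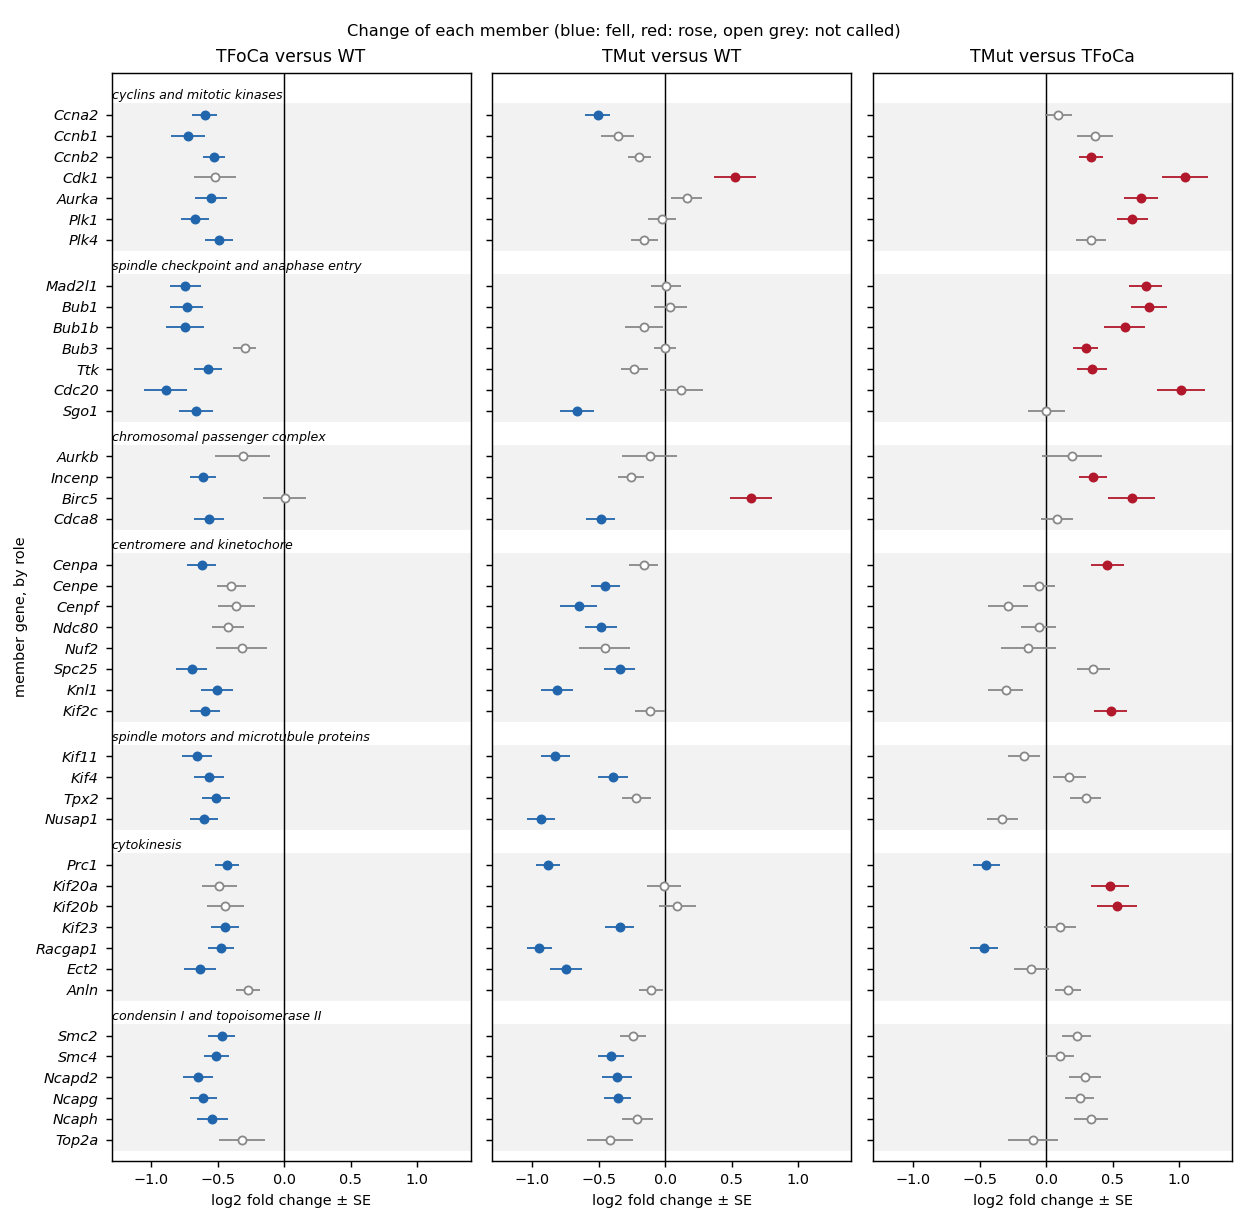
Log2 fold change with its standard error for each of the 43 genes in the 3 comparisons, filled where called. Blue points, falls, make up 31 of 43 in TFoCa versus WT and 18 in TMut versus WT, and red points, rises, make up 16 in TMut versus TFoCa.

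Among the cyclins and mitotic kinases 6 of 7 fell in TFoCa against WT (85.7%, against 3.52% of all genes). TMut against WT gave 1 rise (14.3%, against 18.4% of all genes) and 1 fall (14.3%, against 20.4%). Ccna2, which encodes cyclin A2, had 5766 and 5603 normalized counts in TMut, 5199 and 5478 in TFoCa and 8621, 7574 and 8081 in WT. All 4 mutant libraries lay below all 3 WT libraries, with log2 fold changes against WT of -0.51 ± 0.09 in TMut (adjusted p = 0.00443) and -0.60 ± 0.09 in TFoCa (adjusted p = 0.0106; errors are SE throughout, n = 2 TMut, 2 TFoCa and 3 WT). Ccnb1, for cyclin B1, had 5711 and 6433 in TMut, 4479 and 4935 in TFoCa and 8884, 6980 and 7552 in WT. Its TMut libraries lay between those of TFoCa and WT, and it fell in TFoCa (-0.72 ± 0.13, adjusted p = 0.0145), a call that ended without WT replicate 3 (adjusted p = 0.0526). In TMut against WT its value was -0.36 ± 0.13 (adjusted p = 0.0559). Ccnb2, for cyclin B2, showed the same order, with 4170 and 4373 in TMut, 3357 and 3414 in TFoCa and 4982, 4769 and 4912 in WT. It fell in TFoCa against WT (-0.53 ± 0.08, adjusted p = 0.0113), where the call ended without WT replicate 2 or 3 (highest adjusted p = 0.0532, WT replicate 2).

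Cdk1, the kinase these cyclins activate, lay below WT in TFoCa, as the cyclins did, but above WT in TMut. The difference between these genes was not tested. It had 6419 and 6741 normalized counts in TMut, 3477 and 2931 in TFoCa and 5635, 4058 and 4180 in WT. TMut was highest and TFoCa lowest with no overlap between any groups, and WT replicate 1 stood above the other WT libraries. TMut exceeded TFoCa 2.06-fold (1.04 ± 0.17, adjusted p = 0.00448), with every library left out in turn. Cdk1 also rose in TMut against WT (0.52 ± 0.16, adjusted p = 0.0328), a call that ended without WT replicate 2, WT replicate 3 or either TMut library (highest adjusted p = 0.142, TMut replicate 2). In TFoCa against WT it was -0.52 ± 0.16 (adjusted p = 0.0828).

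Plk1, Aurka and Plk4 fell in TFoCa and were not called in TMut against WT. Plk1, a kinase of spindle assembly and cytokinesis, had 5343 and 5698 in TMut, 3418 and 3628 in TFoCa and 6250, 5313 and 5308 in WT. Its TMut and WT libraries overlapped (-0.02 ± 0.11, adjusted p = 0.882), and it fell in TFoCa against WT (-0.67 ± 0.11, adjusted p = 0.0113). Aurka, the centrosome and spindle kinase aurora A, had 3992 and 4577 in TMut, 2586 and 2634 in TFoCa and 4305, 3678 and 3535 in WT. It rose in TMut against TFoCa (0.71 ± 0.13, adjusted p = 0.00595), as did Plk1 (0.65 ± 0.12, adjusted p = 0.00584). The Aurka fall in TFoCa against WT (-0.55 ± 0.12, adjusted p = 0.0287) ended without any single WT or TFoCa library (highest adjusted p = 0.0876, WT replicate 2). Plk4, which starts centriole duplication, fell in TFoCa against WT (-0.49 ± 0.10, adjusted p = 0.0271), a call lost without any 1 WT library or TFoCa replicate 1 (highest adjusted p = 0.108, WT replicate 3). The rise of Ccnb2 in TMut against TFoCa (0.33 ± 0.09, adjusted p = 0.0259) ended without WT replicate 2, WT replicate 3, TFoCa replicate 1 or either TMut library (highest adjusted p = 0.124, TMut replicate 2).

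Of the 7 genes of the spindle checkpoint and anaphase entry, 6 fell in TFoCa against WT (85.7%, against 3.52% of all genes). In TMut against WT 1 fell (14.3%, against 20.4%), while 6 rose in TMut against TFoCa (85.7%, against 17.3%). Mad2l1, whose product binds and restrains CDC20, had 2738 and 3213 normalized counts in TMut, 1751 and 1783 in TFoCa and 3220, 2767 and 2909 in WT. The TFoCa pair lay far below an overlapping TMut and WT range, at -0.74 ± 0.11 against WT (adjusted p = 0.0102). TMut differed from WT by 0.00 ± 0.11 (adjusted p = 0.987) and exceeded TFoCa by 0.75 ± 0.12 (adjusted p = 0.00454). Bub1, a kinetochore kinase, had 3431 and 3837 in TMut, 2118 and 2137 in TFoCa and 4088, 3254 and 3331 in WT. The same pattern gave -0.73 ± 0.12 in TFoCa against WT (adjusted p = 0.0136) and 0.77 ± 0.14 in TMut against TFoCa (adjusted p = 0.00553). Cdc20, the activator of the anaphase-promoting complex, had 7001 and 9809 in TMut, 3932 and 4282 in TFoCa and 8734, 7163 and 7087 in WT. Its TMut libraries spanned the WT range, and it was the 1 member whose TMut libraries differed by more than 1.3-fold. TMut was 2.02-fold TFoCa (1.01 ± 0.18, adjusted p = 0.00531). The fall of Cdc20 in TFoCa against WT (-0.89 ± 0.16, adjusted p = 0.0167), the lowest of the 43 in that comparison, was lost without WT replicate 1, WT replicate 2 or TFoCa replicate 1 (highest adjusted p = 0.0546, WT replicate 2).

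Of the other checkpoint genes, Bub1b, for the checkpoint protein BUBR1, had 4478 and 4753 in TMut, 3009 and 3120 in TFoCa and 6260, 4666 and 4673 in WT, where WT replicate 1 stood above the rest. It fell in TFoCa (-0.75 ± 0.14, adjusted p = 0.0193), a call lost without WT replicate 2 or TFoCa replicate 1 (highest adjusted p = 0.0537, TFoCa replicate 1). Its rise in TMut against TFoCa (0.59 ± 0.15, adjusted p = 0.0221) was lost without TFoCa replicate 1 or either TMut library (highest adjusted p = 0.105, TMut replicate 2). Ttk, the kinase MPS1 at the top of the checkpoint, fell in TFoCa against WT (-0.58 ± 0.10, adjusted p = 0.0163) but not without any 1 WT library (highest adjusted p = 0.0646, WT replicate 2). Its rise in TMut against TFoCa (0.34 ± 0.11, adjusted p = 0.0485) was lost with any 1 of the 7 libraries left out (highest adjusted p = 0.174, TMut replicate 1). Bub3, a partner of BUB1 and BUBR1, was -0.30 ± 0.08 in TFoCa against WT (adjusted p = 0.0647), and its rise in TMut against TFoCa (0.30 ± 0.09, adjusted p = 0.0384) held in 1 of the 7 fits, without TFoCa replicate 1 (highest adjusted p = 0.147, TMut replicate 2). Sgo1, the shugoshin that protects centromeric cohesin, had 991 and 1012 in TMut, 931 and 1077 in TFoCa and 1480, 1534 and 1769 in WT. TMut and TFoCa overlapped and both lay below WT, at -0.67 ± 0.13 each, with adjusted p = 0.00545 for TMut and 0.0205 for TFoCa. The TFoCa call ended without WT replicate 2, WT replicate 3 or TFoCa replicate 1 (highest adjusted p = 0.0818, WT replicate 3).

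**Figure D3:**
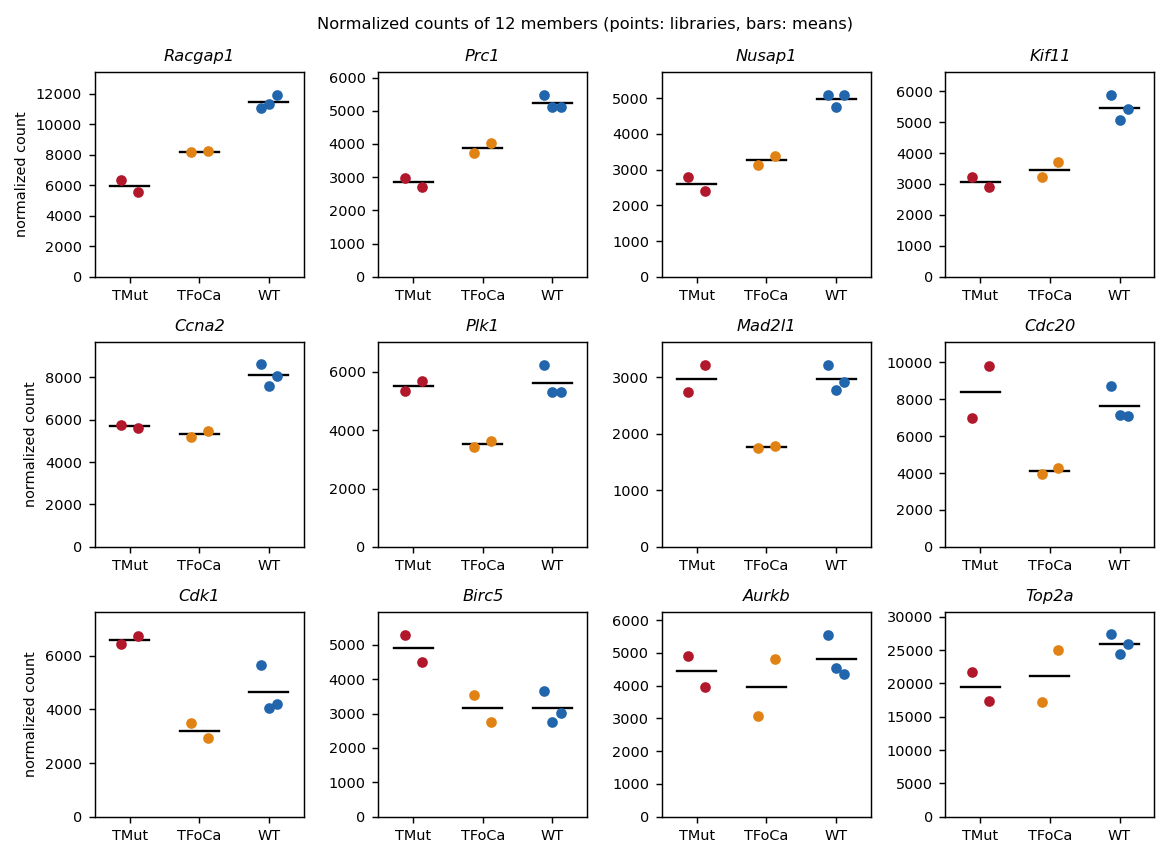
Normalized counts of 12 of the genes, 1 panel each with the axis from 0, in TMut, TFoCa and WT; points are libraries and bars are group means. Racgap1, Prc1 and Nusap1 are lowest in TMut, with TFoCa between TMut and WT, Plk1, Mad2l1 and Cdc20 are lowest in TFoCa with TMut and WT overlapping, and Cdk1 and Birc5 are highest in TMut.

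In the chromosomal passenger complex INCENP, survivin and borealin place the kinase aurora B. The calls of its genes were not alike, and differences between these genes were not tested. Birc5, for survivin, had 5288 and 4512 normalized counts in TMut, 3540 and 2768 in TFoCa and 3663, 2764 and 3021 in WT. Both TMut libraries lay above all others, and TFoCa and WT overlapped (0.00 ± 0.16, adjusted p = 0.997). Its rise against WT (0.64 ± 0.16, adjusted p = 0.016) was lost without WT replicate 2, WT replicate 3 or TMut replicate 1 (highest adjusted p = 0.0912, TMut replicate 1). Its rise in TMut against TFoCa (0.64 ± 0.18, adjusted p = 0.0257) was lost without TFoCa replicate 2 or either TMut library (highest adjusted p = 0.107, TMut replicate 1). Incenp, the scaffold, had 5884 and 6406 in TMut, 4748 and 4869 in TFoCa and 7975, 7140 and 6986 in WT. The 3 groups did not overlap, and TFoCa fell against WT (-0.61 ± 0.10, adjusted p = 0.0113; 0.0506 without WT replicate 2). The rise of Incenp in TMut against TFoCa (0.35 ± 0.11, adjusted p = 0.036) held only without WT replicate 1 of the 7 fits (highest adjusted p = 0.174, TMut replicate 2). Cdca8, for borealin, had 5242 and 5146 in TMut, 4491 and 5380 in TFoCa and 7885, 6883 and 7101 in WT. Both genotypes lay below WT, TMut by -0.49 ± 0.11 (adjusted p = 0.0111; 0.0628 without TMut replicate 2) and TFoCa by -0.57 ± 0.11 (adjusted p = 0.022). The TFoCa call was lost without any 1 WT library or TFoCa replicate 1 (highest adjusted p = 0.0737, WT replicate 3). Aurkb, for aurora B itself, had 4904 and 3961 in TMut, 3070 and 4819 in TFoCa and 5558, 4531 and 4343 in WT. All groups overlapped, the TFoCa libraries differed by more than 1.3-fold, and none of the 3 comparisons was called.

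Of 8 centromere and kinetochore genes, 4 fell in TFoCa against WT (Cenpa, Spc25, Knl1 and Kif2c), where 3.52% of all genes fell. In TMut against WT 5 of them fell (Cenpe, Cenpf, Ndc80, Spc25 and Knl1), where 20.4% of all genes did. Knl1, the scaffold on which checkpoint proteins gather, had 804 and 796 normalized counts in TMut, 1004 and 974 in TFoCa and 1292, 1386 and 1555 in WT. The groups did not overlap and TMut was lowest, at -0.81 ± 0.12 against WT (adjusted p = 0.00181). The TFoCa value (-0.51 ± 0.12, adjusted p = 0.042) lost its call with any 1 of the 7 libraries left out (highest adjusted p = 0.146, WT replicate 3). Cenpa, for the histone variant that marks centromeres, had 5039 and 5191 in TMut, 3867 and 3577 in TFoCa and 6473, 5477 and 5296 in WT. Its TMut libraries lay just under the WT range (-0.16 ± 0.11, adjusted p = 0.28), while TFoCa fell (-0.62 ± 0.11, adjusted p = 0.016; 0.0573 without WT replicate 2). Kif2c, for the microtubule depolymerase MCAK, had 3535 and 3359 in TMut, 2272 and 2672 in TFoCa and 4075, 3510 and 3633 in WT. TFoCa lay below an overlapping TMut and WT range (-0.60 ± 0.11 against WT, adjusted p = 0.0195; lost without any 1 WT library or TFoCa replicate 1, highest 0.0667 without WT replicate 3). Both genes rose in TMut against TFoCa, Cenpa by 0.46 ± 0.12 (adjusted p = 0.0231) and Kif2c by 0.48 ± 0.12 (adjusted p = 0.0204). These rises were lost without either TMut library, and also without TFoCa replicate 2 for Cenpa and TFoCa replicate 1 for Kif2c (highest adjusted p = 0.103 for Cenpa, TMut replicate 2, and 0.0742 for Kif2c, TMut replicate 1).

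The NDC80 complex, which grips the microtubule, contributed 3 members. Spc25 had 2073 and 1896 in TMut, 1692 and 1420 in TFoCa and 2631, 2371 and 2548 in WT. It fell in TFoCa (-0.70 ± 0.12, adjusted p = 0.0129; 0.0556 without WT replicate 3) and in TMut (-0.34 ± 0.12, adjusted p = 0.0494), the TMut call being lost without any 1 WT or TMut library (highest adjusted p = 0.222, TMut replicate 2). Ndc80 had 1651 and 1466 in TMut, 1574 and 1664 in TFoCa and 1937, 2306 and 2302 in WT. TMut and TFoCa overlapped below WT, and the TMut call (-0.48 ± 0.12, adjusted p = 0.0163) was lost without WT replicate 2, WT replicate 3 or TMut replicate 2 (highest adjusted p = 0.105, TMut replicate 2). Nuf2, the direct partner of NDC80, was not called in any comparison, and its values ranged from 1904 to 2117 in TMut, 1827 to 2659 in TFoCa and 2297 to 3144 in WT. Cenpe, a kinesin of chromosome alignment, had 2976 and 2993 in TMut, 2995 and 3200 in TFoCa and 3796, 3903 and 4587 in WT. The TMut fall (-0.45 ± 0.11, adjusted p = 0.0142) was lost without either TMut library (highest adjusted p = 0.0663, TMut replicate 2), and TFoCa gave -0.40 ± 0.11 (adjusted p = 0.063). Cenpf, a large protein of the outer kinetochore, fell in TMut (-0.65 ± 0.14, adjusted p = 0.00856; 0.0592 without TMut replicate 2) and was -0.36 ± 0.14 in TFoCa (adjusted p = 0.153).

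All 4 spindle motors and microtubule proteins fell in TFoCa against WT (100%, against 3.52% of all genes). In TMut against WT 3 of them fell (75.0%, against 20.4%). Kif11, the motor that pushes the spindle poles apart, had 3229 and 2917 normalized counts in TMut, 3211 and 3706 in TFoCa and 5870, 5068 and 5415 in WT. TMut and TFoCa overlapped, and every library of both lay below WT. The log2 fold changes of Kif11 were -0.83 ± 0.11 in TMut (adjusted p = 0.00122) and -0.66 ± 0.11 in TFoCa (adjusted p = 0.0137; 0.0555 without WT replicate 3). Nusap1, which bundles microtubules near chromosomes and is 1 of the genes whose promoter is printed, had 2805 and 2402 in TMut, 3134 and 3395 in TFoCa and 5076, 4743 and 5079 in WT. TMut was lowest without overlap, at 0.523-fold WT (-0.93 ± 0.10, adjusted p = 0.000545). The TFoCa fall of Nusap1 (-0.61 ± 0.10, adjusted p = 0.014) was lost without any 1 WT library (highest adjusted p = 0.0617, WT replicate 3). Kif4, a chromosome-bound kinesin, fell in TMut (-0.39 ± 0.11, adjusted p = 0.0281; lost without WT replicate 1, WT replicate 3 or either TMut library, highest 0.152 without TMut replicate 2) and in TFoCa (-0.57 ± 0.11, adjusted p = 0.0236; lost without any 1 WT library or TFoCa replicate 1, highest 0.0878 without WT replicate 3). Tpx2, the activator of aurora A on the spindle, had 7711 and 7544 in TMut, 5993 and 6430 in TFoCa and 9957, 8208 and 8545 in WT. It fell in TFoCa (-0.52 ± 0.11, adjusted p = 0.0271), lost without any 1 WT library or TFoCa replicate 1 (highest adjusted p = 0.0816, WT replicate 3), and was -0.22 ± 0.11 in TMut (adjusted p = 0.145).

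Cytokinesis genes held both of the falls in TMut against TFoCa (28.6% of 7 genes, against 18.5% of all genes). Racgap1, a subunit of centralspindlin, had 6339 and 5542 normalized counts in TMut, 8186 and 8228 in TFoCa and 11059, 11337 and 11883 in WT. TMut was lowest, TFoCa between and WT highest, with no overlap, and TMut stood at 0.519-fold WT (-0.95 ± 0.09, adjusted p = 0.000376). Against TFoCa the TMut value was -0.47 ± 0.10 (adjusted p = 0.0122; 0.0792 without TMut replicate 2), and TFoCa against WT gave -0.48 ± 0.09 (adjusted p = 0.0229). The TFoCa fall of Racgap1 was lost without any 1 WT library (highest adjusted p = 0.0944, WT replicate 3). Prc1, which bundles the antiparallel microtubules of the central spindle, had 2964 and 2718 in TMut, 3736 and 4024 in TFoCa and 5471, 5107 and 5123 in WT. The order of the groups was the same, with TMut at -0.88 ± 0.09 against WT (adjusted p = 0.000453) and -0.45 ± 0.10 against TFoCa (adjusted p = 0.0134; 0.08 without TMut replicate 2). In TFoCa against WT Prc1 fell by 0.43 on the log2 scale (adjusted p = 0.0303), lost without any 1 WT library or TFoCa replicate 1 (highest adjusted p = 0.102, WT replicate 2).

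Kif23, for the motor subunit that pairs with RACGAP1 in centralspindlin, had 3080 and 2611 in TMut, 2708 and 2575 in TFoCa and 3747, 3376 and 3679 in WT. TMut and TFoCa overlapped, and both lay below WT. The TMut call (-0.34 ± 0.11, adjusted p = 0.0386) was lost without any 1 WT library or TMut replicate 2 (highest adjusted p = 0.237, TMut replicate 2), and the TFoCa call (-0.45 ± 0.11, adjusted p = 0.0447) without any 1 WT or TFoCa library (highest adjusted p = 0.142, WT replicate 3). Ect2, the exchange factor that centralspindlin recruits to activate RhoA, had 2376 and 2628 in TMut, 2410 and 3026 in TFoCa and 4196, 4087 and 4309 in WT. TMut and TFoCa overlapped below WT, TMut at -0.75 ± 0.12 (adjusted p = 0.00243) and TFoCa at -0.64 ± 0.12 (adjusted p = 0.0189), the TFoCa call being lost without any 1 WT library (highest adjusted p = 0.0763, WT replicate 3). Kif20a, a kinesin of the central spindle, had 3308 and 3849 in TMut, 2587 and 2530 in TFoCa and 4158, 3279 and 3395 in WT. It was called only as a rise in TMut against TFoCa (0.48 ± 0.14, adjusted p = 0.0339), lost without WT replicate 2, WT replicate 3, either TFoCa library or TMut replicate 2 (highest adjusted p = 0.175, TMut replicate 2). Kif20b, a related kinesin, likewise rose only in TMut against TFoCa (0.53 ± 0.15, adjusted p = 0.0302), lost without WT replicate 2, WT replicate 3, TFoCa replicate 1 or either TMut library (highest adjusted p = 0.111, TMut replicate 2). Anln, for the actin-binding ring protein anillin, was 3021 and 2841 in TMut, 2525 and 2715 in TFoCa and 3180, 3224 and 3080 in WT. Its groups did not overlap, yet no comparison was called, and TFoCa against WT gave -0.27 ± 0.09 (adjusted p = 0.109).

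All 5 condensin I genes fell in TFoCa against WT, where 3.52% of all genes fell. In TMut against WT 3 of them fell, where 20.4% of all genes did. Ncapd2 had 11749 and 12282 normalized counts in TMut, 9788 and 9852 in TFoCa and 17385, 13868 and 15240 in WT. The groups did not overlap, and TMut lay between TFoCa and WT. The TFoCa fall of Ncapd2 was -0.65 ± 0.11 (adjusted p = 0.0141; 0.0566 without WT replicate 3), and that in TMut was -0.36 ± 0.11 (adjusted p = 0.0369), lost without WT replicate 1, WT replicate 3 or either TMut library (highest adjusted p = 0.142, TMut replicate 1). Ncapg fell in TMut (-0.36 ± 0.10, adjusted p = 0.0253; lost without the same libraries as Ncapd2, highest 0.114 without TMut replicate 2) and in TFoCa (-0.61 ± 0.10, adjusted p = 0.0127; 0.0561 without WT replicate 3). Smc4, 1 of the ATPase subunits, had 7069 and 6920 in TMut, 6275 and 6748 in TFoCa and 9466, 8617 and 9812 in WT. It fell in TMut (-0.41 ± 0.09, adjusted p = 0.0119; lost without WT replicate 3 or TMut replicate 2, highest 0.0688 without TMut replicate 2) and in TFoCa (-0.51 ± 0.09, adjusted p = 0.0182; lost without any 1 WT library, highest 0.0792 without WT replicate 3). Smc2, its partner ATPase (-0.47 ± 0.10, adjusted p = 0.0272), and Ncaph, the subunit that bridges them (-0.54 ± 0.12, adjusted p = 0.0296), were called in TFoCa against WT alone. Both calls were lost without any 1 WT library or TFoCa replicate 1, and that of Smc2 also without TFoCa replicate 2 (highest adjusted p = 0.102 for Smc2 and 0.0803 for Ncaph, WT replicate 3). Top2a, for the topoisomerase that untangles sister chromatids, had 21651 and 17320 in TMut, 17219 and 24944 in TFoCa and 27417, 24460 and 25864 in WT. The TFoCa libraries differed by more than 1.3-fold, TFoCa replicate 2 lay inside the WT range, and Top2a was not called (-0.32 ± 0.17 in TFoCa against WT, adjusted p = 0.294).

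The libraries of 1 genotype were not equal. Averaged over the 43 genes, log2 values stood at -0.28 and -0.30 in TMut replicates 1 and 2 and at -0.58 and -0.48 in TFoCa replicates 1 and 2, relative to the WT mean. WT replicate 1 was the highest WT library for 32 of the 43 genes and WT replicate 2 the lowest for 31. TFoCa replicate 1 was the lower of its pair for 35. The TFoCa libraries differed by more than 1.3-fold for Aurkb, Nuf2, Kif20b and Top2a, with TFoCa replicate 2 higher in each. In WT the highest exceeded the lowest library by more than 1.3-fold for Cdk1, Bub1b, Birc5 and Nuf2, and in TMut for Cdc20. Per kilobase of transcript (the longest in an annotation of build GRCm38, not the authors'), mean WT levels ran from 181 normalized counts for Knl1 to 4963 for Top2a. Exons of 8 members overlapped a gene on the opposite strand in that annotation, most for Kif20a (31.8% of exon bases, with Cdc23), Prc1 (21.8%, with Rccd1) and Ncapg (20.8%, with Lcorl). Whether counting used strand is not given in the sources used here, so the reads of such pairs cannot be told apart. Among these partners Lcorl fell in limma in TMut against WT (-1.16, adjusted p = 0.00171). Oip5, which overlaps Nusap1, fell in TMut (-0.39, adjusted p = 0.0483) and TFoCa (-0.62, adjusted p = 0.0273). Elovl1, which overlaps Cdc20, rose in TMut against WT (1.37, adjusted p = 0.000252). Cdc23, Rccd1, Exosc9, Pdzd11 and Gm44985 were not called against WT. Ccnb1, Ccnb2 and Kif4 have pseudogenes by name, to which reads may have been split.

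Genes of mitosis outside the 43, taken from a list of 143 of which 142 were tested, were read from the same fit. In TFoCa against WT 34 fell in limma (23.9%, against 3.52% of all genes), with a median of -0.36. The 6 with the smallest adjusted p were the kinetochore gene Spc24 (-0.87 ± 0.10, adjusted p = 0.00449), the cohesin acetyltransferase gene Esco2 (-1.07 ± 0.13, adjusted p = 0.00506), the mitotic kinase gene Pbk (-0.69 ± 0.10, adjusted p = 0.0101), the CDK partner gene Cks2 (-0.61 ± 0.09, adjusted p = 0.0106), Pmf1 of the MIS12 complex (-0.59 ± 0.10, adjusted p = 0.012) and Melk (-0.65 ± 0.11, adjusted p = 0.0127). The calls of Pmf1 and Melk ended without WT replicate 2 (adjusted p = 0.0618 and 0.0538). In TMut against WT 10 rose (7.04%, against 18.4% of all genes) and 32 fell (22.5%, near the 20.4% of all genes), with a median of -0.13. Haus7, of the augmin complex of the spindle (1.50 ± 0.13, adjusted p = 0.000217), and Zwint of the kinetochore (0.57 ± 0.09, adjusted p = 0.00207) rose. Pbk (-1.15 ± 0.10, adjusted p = 0.000262), the CDK1-activating phosphatase gene Cdc25b (-1.43 ± 0.15, adjusted p = 0.000455), Ckap5, a microtubule polymerase gene (-0.73 ± 0.10, adjusted p = 0.00139), and the cohesin gene Rad21 (-0.56 ± 0.08, adjusted p = 0.0018) fell. In TMut against TFoCa 45 rose (31.7%, against 17.3% of all genes) and 6 fell (4.23%, against 18.5%), with a median of 0.26. The 6 with the smallest adjusted p all rose: Haus7 (1.42 ± 0.14), the kinetochore gene Cenph (1.23 ± 0.12), the CDK partner genes Cks1b (0.92 ± 0.11) and Cks2 (0.72 ± 0.10), the cohesin regulator Cdca5 (1.22 ± 0.17) and the spindle motor gene Kifc1 (0.77 ± 0.12). Apart from Pmf1 and Melk, these calls held with each library left out in turn.

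By subgroup of that list, the anaphase-promoting complex (17 genes) gave 2 rises (11.8%, against 18.4% of all genes) and 0 falls in TMut against WT, 0 rises and 3 falls (17.6%, against 3.52%) in TFoCa against WT, and 8 rises (47.1%, against 17.3%) and 0 falls in TMut against TFoCa. Cohesin and its regulators (14 genes) gave 0 rises and 6 falls (42.9%, against 20.4%) in TMut against WT, 0 rises and 3 falls (21.4%, against 3.52%) in TFoCa against WT, and 2 rises (14.3%, against 17.3%) and 3 falls (21.4%, against 18.5%) in TMut against TFoCa. The 27 further centromere and kinetochore genes gave 2 rises (7.41%, against 18.4%) and 3 falls (11.1%, against 20.4%) in TMut against WT, 0 rises and 8 falls (29.6%, against 3.52%) in TFoCa against WT, and 11 rises (40.7%, against 17.3%) and 0 falls in TMut against TFoCa. The other subgroups gave 0 rises in TFoCa against WT, where 5.25% of all genes rose and 3.52% fell. Falls there numbered 2 of 11 CDK1 regulators (18.2%), 0 of 9 further checkpoint genes and 9 of 34 spindle and centrosome genes (26.5%). Further cytokinesis genes gave 2 falls of 13 (15.4%), and condensin II, condensin I partners and chromosome periphery 4 of 7 (57.1%). Their TMut counts are not given here. Of 10 tested genes that control mitotic transcription, 3 fell in TMut (30.0%, against 20.4% of all genes) and 3 in TFoCa (30.0%, against 3.52%) against WT. Foxm1, the activator of late cell cycle genes, had 4259 and 3723 normalized counts in TMut, 3888 and 4153 in TFoCa and 5807, 5171 and 5923 in WT. TMut and TFoCa overlapped below WT, TMut at -0.50 ± 0.11 (adjusted p = 0.0086) and TFoCa at -0.48 ± 0.11 (adjusted p = 0.0322), the TMut call being lost without TMut replicate 2 (adjusted p = 0.0682) and the TFoCa call without any 1 WT library or TFoCa replicate 1 (highest adjusted p = 0.119, WT replicate 3). Mybl2, for B-MYB, had 3029 and 7433 in TMut, 1154 and 1761 in TFoCa and 3668, 5347 and 4214 in WT. TMut spanned the WT range, and TFoCa lay lowest at -1.61 ± 0.37 against WT (adjusted p = 0.0355), a call lost without any 1 WT library or TFoCa replicate 1 (highest adjusted p = 0.119, TFoCa replicate 1). It rose in TMut against TFoCa (1.73 ± 0.40, adjusted p = 0.0142), lost without TFoCa replicate 1 or TMut replicate 2 (highest adjusted p = 0.0609, TFoCa replicate 1).

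DNA replication and S phase genes, 41 in number, were set beside the mitosis genes. In TFoCa against WT 0 rose and 23 fell (56.1%, against 3.52% of all genes), with a median log2 fold change of -0.64. In TMut against WT 8 rose (19.5%, near the 18.4% of all genes) and 2 fell (4.88%, against 20.4%), with a median of -0.05. In TMut against TFoCa 25 rose (61.0%, against 17.3%) and 0 fell, with a median of 0.64. The difference between these lists was not tested.

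Of 12 cell cycle inhibitor genes, 3 rose (25%, against 18.4% of all genes) and 4 fell (33.3%, against 20.4%) in TMut against WT, and 3 rose (25%, against 5.25%) and 0 fell in TFoCa against WT. Cdkn1a, for p21, had 21273 and 23644 normalized counts in TMut, 14510 and 15407 in TFoCa and 9136, 8617 and 9006 in WT. TMut was highest and WT lowest without overlap, at 1.33 ± 0.09 in TMut (adjusted p = 0.000128) and 0.75 ± 0.09 in TFoCa (adjusted p = 0.00558) against WT. Cdkn2a, the locus of p16 and ARF, had 3720 and 4547 in TMut, 1520 and 2120 in TFoCa and 951, 789 and 810 in WT. It took the same order, at 2.28 ± 0.17 in TMut (adjusted p = 0.00016) and 1.08 ± 0.17 in TFoCa (adjusted p = 0.0118; 0.0519 without WT replicate 2). The relation of these levels to those of the mitosis genes was not tested.

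**Figure D4:**
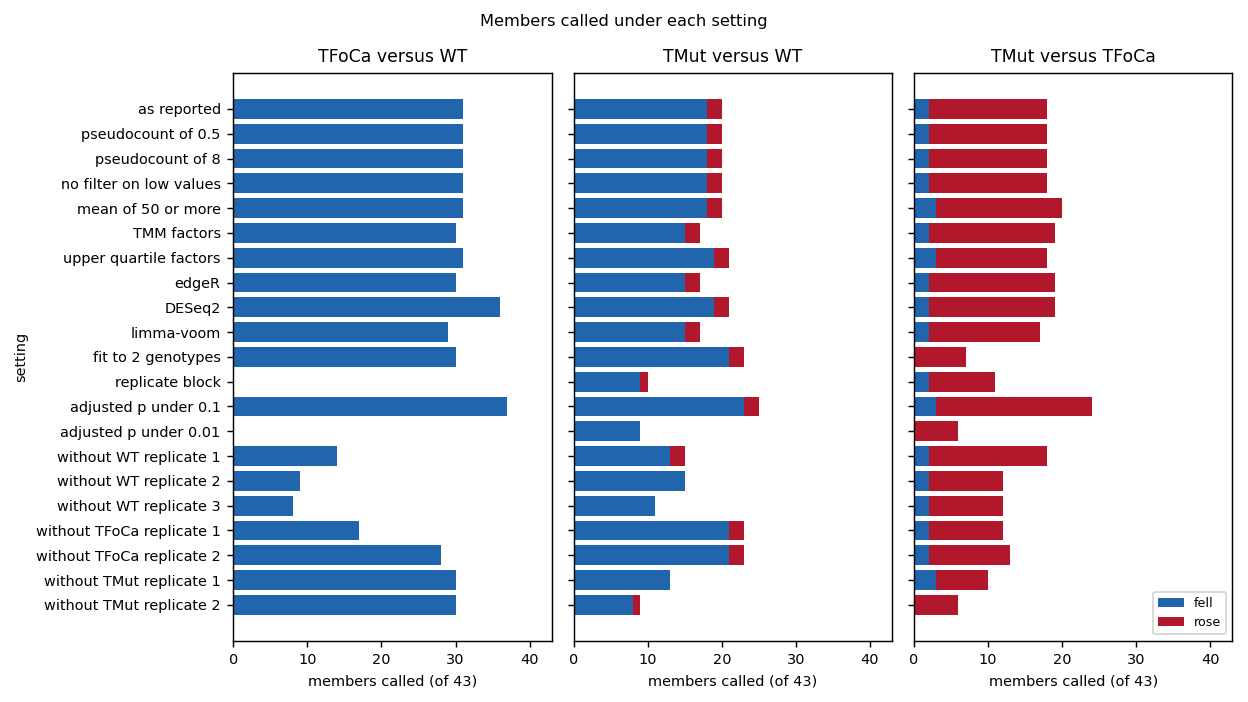
Number of the 43 genes called as fallen (blue) or risen (red) in each comparison, 1 bar per setting, including each library left out. TFoCa versus WT ranges from 0 calls with a replicate block or an adjusted p under 0.01 to 37 at an adjusted p under 0.1, while no setting calls a rise there.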

How the data were processed

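RNA of 7 lines (2 TMut, 2 TFoCa and 3 WT) was analysed. Reads were handled by the authors with STAR 2.7.3a, Trim Galore 0.6.5, SAMtools, DESeq2 and featureCounts on build mm39, per the submitters' processing notes. Settings, annotation and strand use are not given in the sources used here. The deposited signal values are gene counts that the authors divided by a DESeq2 size factor. Whole reads were recovered for 100% of values within 0.001 read. Among recovered values of 1 to 20 reads the even share was 70.29% to 79.32%, so both mates of a pair may have been counted, and count models may then overstate precision.

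Log2(normalized count + 1) was fitted with limma 3.58.1 (intensity trend, R 4.3.3) over all genes passing the filter, with 1 model for the 3 genotypes and 4 residual degrees of freedom. Low genes change less on this scale. A gene was called at an adjusted p under 0.05. P-values measure the spread between lines. Replicate numbers were not taken as pairs, since they share no stated litter, batch or day. Deviations of same-numbered libraries correlated by 0.0192 to 0.185, and those of unlike-numbered libraries by -0.185 to 0.108. In a group of 2 libraries the deviations are exact opposites, so these correlations cannot decide whether lines were paired. The 43 genes, the other lists and the naming rule (all 43, the 6 other mitosis genes with the smallest adjusted p per comparison, and regulators) were chosen with earlier results of these data known. Foxm1, Mybl2, Cdkn1a, Cdkn1b, Cdkn2a, Cdkn2b and Rb1 were picked from their lists after their values were seen. Alternatives were edgeR 4.0.16, DESeq2 1.42.0, limma-voom, other size factors, pseudocounts, filters and thresholds, a replicate block, a fit to 2 genotypes and leaving out each library. Gene names, lengths and promoters came from build GRCm38.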

Additional observations from a re-analysis of the deposited data

How the results depend on the processing

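With all libraries, 31 members were called in TFoCa against WT, 20 in TMut against WT and 18 in TMut against TFoCa. Leaving out 1 library gave 8 to 30, 9 to 23 and 6 to 18 calls in these comparisons, and a fit to only the TMut and TFoCa libraries gave 7. Over all genes that fit to TMut and TFoCa libraries gave 1647 rises and 1827 falls among 17737 tested. Fewer libraries leave fewer residual degrees of freedom by construction. A replicate block gave 0, 10 and 11 calls. Over all genes it gave 192 falls and 363 rises in TFoCa against WT, against 638 and 952 without the block. The block gave 2474 falls and 2146 rises in TMut against WT, and 2642 and 2389 in TMut against TFoCa. With the block 37 members were lower in TFoCa than in WT at an unadjusted p under 0.05. The share of all genes at that unadjusted threshold is not given here. The replicate numbers share no stated litter, batch or day, so the block is no evidence on pairing. At an adjusted p under 0.01 the counts were 0, 9 and 6. Of all 18134 genes 269 then rose and 73 fell in TFoCa against WT. In TMut against WT 1815 rose and 2193 fell, and in TMut against TFoCa 1247 rose and 1578 fell. Whether members exceeded all genes at that threshold was not tested. edgeR, DESeq2, limma-voom, TMM and upper quartile factors, other pseudocounts and a higher filter kept each count within 1.5 times.

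Log2 values of some members changed sign between settings, none of them called, and the cause was not tested. Not all of these values were near 0. With all libraries Aurkb was -0.31 in TFoCa against WT and 0.20 in TMut against TFoCa. In TMut against WT, TMM, edgeR and limma-voom gave Plk1 0.010, 0.0065 and 0.010, Bub3 0.029, 0.029 and 0.029, and Kif20a 0.025, 0.020 and 0.023. In TMut against TFoCa they gave Sgo1 0.011, 0.0072 and 0.019. The replicate block gave Birc5 -0.023 in TFoCa against WT, and Mad2l1 -0.0093, Bub1 -0.0075 and Bub3 0.0098 in TMut against WT, where upper quartile factors gave Mad2l1 -0.011. With 1 library left out, TFoCa against WT ranged from -0.64 to 0.011 for Aurkb and -0.18 to 0.18 for Birc5. TMut against WT ranged from -0.069 to 0.055 for Plk1, -0.11 to 0.12 for Mad2l1, -0.045 to 0.14 for Bub1, -0.027 to 0.0098 for Bub3, -0.12 to 0.36 for Cdc20, -0.27 to 0.036 for Aurkb and -0.12 to 0.10 for Kif20a. TMut against TFoCa ranged from -0.11 to 0.10 for Sgo1, -0.13 to 0.52 for Aurkb, -0.051 to 0.21 for Cdca8, -0.14 to 0.029 for Ndc80, -0.41 to 0.14 for Nuf2, -0.016 to 0.22 for Kif23, -0.28 to 0.052 for Ect2 and -0.37 to 0.17 for Top2a.

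With 2 lines in each mutant genotype, small differences are not resolved, and a member that was not called is not shown to be equal between groups. Each member had at least 796 normalized counts in every library.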

Other observations

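Ratios of normalized counts between genes whose products act together were chosen after the values were seen, and no test was made on them. All 8 ratios computed are given. They are ratios between genes of unequal length, to be compared across libraries only. Cdk1 over Ccnb1, a kinase over its cyclin, was 1.12 and 1.05 in TMut, 0.776 and 0.594 in TFoCa and 0.634, 0.581 and 0.554 in WT. Both TMut ratios lay above all others, and those of TFoCa and WT overlapped. Racgap1 over Kif23, the subunits of centralspindlin, was 2.06 and 2.12 in TMut, 3.02 and 3.19 in TFoCa and 2.95, 3.36 and 3.23 in WT. Here both TMut ratios lay below all others. Birc5 over Incenp, of the chromosomal passenger complex, was 0.899 and 0.704 in TMut, 0.746 and 0.568 in TFoCa and 0.459, 0.387 and 0.432 in WT, so that all mutant ratios lay above those of WT. Cdc20 over Mad2l1 was 2.56 and 3.05 in TMut, 2.25 and 2.40 in TFoCa and 2.71, 2.59 and 2.44 in WT. Both TFoCa ratios were lower than every other ratio, although both genes fell in TFoCa against WT. Mad2l1 over Bub3, of the checkpoint, was 0.388 and 0.447 in TMut, 0.295 and 0.314 in TFoCa and 0.445, 0.400 and 0.400 in WT, with both TFoCa ratios lowest. The other 3 overlapped between the groups, except that both TFoCa ratios of Ccnb1 over Ccnb2 lay below all WT ratios. Ccnb1 over Ccnb2 ranged from 1.37 to 1.47 in TMut, 1.33 to 1.45 in TFoCa and 1.46 to 1.78 in WT. Aurkb over Incenp ranged from 0.618 to 0.834 in TMut, 0.647 to 0.990 in TFoCa and 0.622 to 0.697 in WT. Nuf2 over Ndc80 ranged from 1.28 to 1.3 in TMut, 1.16 to 1.60 in TFoCa and 0.996 to 1.62 in WT.

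Promoters of the other mitosis genes held TTTGAA in 42 of 118 (35.6%) and those of the replication genes in 6 of 32 (18.8%), where the members had it in 27 of 37.

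Among the other cell cycle inhibitors, which moved in both directions, Rb1, Cdkn1b and Cdkn2b were chosen after their values were seen. Rb1, for the retinoblastoma protein, had 1091 and 839 normalized counts in TMut, 1828 and 2170 in TFoCa and 2369, 2296 and 2700 in WT. Cdkn1b, for p27, had 2951 and 2288 in TMut, 5285 and 5054 in TFoCa and 5028, 6503 and 6530 in WT. Both fell in TMut against WT in limma, Rb1 at -1.36 ± 0.15 (adjusted p = 0.000545) and Cdkn1b at -1.20 ± 0.16 (adjusted p = 0.00102). Cdkn2b, for p15, rose in TMut (1.35 ± 0.18, adjusted p = 0.00106) and in TFoCa (1.26 ± 0.18, adjusted p = 0.00819) against WT.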
